A study of Mus musculus with 4 samples.

Results

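The fibrillar and interstitial collagens are the structural proteins of the connective tissue around muscle fibers. Their mRNA was followed here through 10 genes, Col1a1, Col1a2, Col3a1, Col5a1, Col5a2, Col6a1, Col6a2, Col6a3, Col14a1 and Col15a1. They were chosen by name and found by their gene symbol among 20340 gene labels with a value in all 4 samples, each as 1 locus. The samples were tibialis anterior (TA) muscles, at the front of the lower leg, of wild type C57BL/6 mice aged 20 months (Old 1 and Old 2) and 3 months (Young 1 and Young 2), profiled by mRNA-seq, and no treatment is named for either age. Sex was chosen at random and is not given per sample, and the sources used here do not say whether animals were pooled. The question was which collagen mRNAs differ between old muscles, whose fibers were smaller, and young muscles.

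A collagen is built of 3 chains wound into a triple helix, which needs 1 glycine in each 3 residues. Collagens I and III are the main fibril-forming collagens of muscle connective tissue, and collagen V is built into the same fibrils and sets their start and width. Collagen VI forms beaded microfilaments next to the basement membrane of the fibers, collagen XIV binds to the surface of fibrils, and collagen XV lies at the border of basement membrane and fibrils. Fibroblasts make most of these chains.

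The repeat that defines the family is shown at the middle of the longest uninterrupted helix of 5 members, to show what the genes share and where they part. The sequences are coding strand, from GENCODE M21 transcripts on GRCm38 (mm10), and the glycine codons of the repeat are in capitals. Those of Col1a1 (chr11:94945527-94945589, plus strand, exon 31 of 51), Col1a2 (chr6:4527082-4527144, plus strand, exon 31 of 52) and Col3a1 (chr1:45337259-45337321, plus strand, exon 30 of 51) each lie within 1 exon. Those of Col6a1 (chr10:76717280-76717426, minus strand, exons 16 and 17 of 35) and Col15a1 (chr4:47279422-47279858, plus strand, exons 15 and 16 of 40) run across 1 intron, which is not printed.
Col1a1: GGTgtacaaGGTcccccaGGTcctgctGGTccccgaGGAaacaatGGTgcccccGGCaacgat
Col1a2: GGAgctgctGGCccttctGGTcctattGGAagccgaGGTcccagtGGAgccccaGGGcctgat
Col3a1: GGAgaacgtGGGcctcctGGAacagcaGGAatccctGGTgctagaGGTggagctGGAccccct
Col6a1: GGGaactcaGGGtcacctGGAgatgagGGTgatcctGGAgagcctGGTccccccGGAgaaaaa
Col15a1: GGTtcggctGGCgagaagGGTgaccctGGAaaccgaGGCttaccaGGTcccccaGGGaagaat
The 5 chains of collagens I, III and V held 338 to 344 of these triplets without a break, which was 69.8% of the codons in Col1a1 and 55.2% in Col5a1. The longest unbroken run was 87 triplets in Col6a1 and Col6a2, 45 in Col6a3, 32 in Col14a1 and 30 in Col15a1. Glycine made up 28.3% of the codons of Col3a1 and 9.30% of those of Col6a3, the lowest share of the 10.

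Values were FPKM, fragments scaled to transcript length and to the mapped fragments of the library, so levels of different chains can be set side by side. They carry no read counts, and the depth behind them, and with it the counting error, is unknown. The 2 samples of an age differed by a factor: among genes at 10 to 30 FPKM, the median log2 ratio was 1.00 for Old 1 to Old 2 and 0.99 for Young 2 to Young 1. Apart from that factor, genes at middle levels were nearly alike within an age. Between 30 and 100 FPKM, log2 ratios scattered around their median with a robust SD of 0.047 in the old pair and 0.052 in the young pair, against 0.39 and 0.37 between the ages. At the highest levels the factor was larger. Mylpf, a light chain of fast myosin, had 22420 FPKM in Old 1 and 4152 in Old 2, against 4602 in Young 1 and 22820 in Young 2. The sources speak of independent sequencing experiments, and differ on how many were made, but do not say whether each had its own muscle. Separate muscles and repeated sequencing of 1 library cannot be told apart from the values, so each sample is shown, and a p-value measures only the spread between samples of an age, which may be technical. Samples of like scale (Old 1 beside Young 2, and Old 2 beside Young 1) are compared directly as folds, a choice made once the values were known. For the test, each sample was divided by its median ratio to the mean sample, and log2(FPKM + 1) was fitted with limma. Of 10 skeletal muscle markers tested, 0 passed the threshold in limma. Their spread within an age was wide (SE from 0.19 for Myoz1 to 0.98 for Tnnc2), so the test could hardly show a change. In both pairs of like scale, 4 of the 10 were lower and 4 higher in old samples. The share of all genes lower or higher in both pairs was not counted, here or for such counts below. Ckm, the muscle creatine kinase gene, was listed at 0 in all 4 samples. Genes of slow fibers were far higher in old muscles: all 5 that were tested passed, with summed scaled FPKM of 798 and 619 in old against 40.6 and 49.7 in young muscles.

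The mRNA of the 10 collagen genes was lower in old muscles, and most so for collagens I and III. Of the 10 genes, 9 reached the filter of 1 FPKM in 2 samples and were tested, and 5 of them fell (Col1a1, Col1a2, Col3a1, Col5a1 and Col5a2) at an adjusted p under 0.05 from limma. None rose. Over all 10266 genes tested, 7.94% were called lower and 5.61% higher. The median log2 fold change of the 9 was -0.59, against -0.01 over all genes tested, and all 9 were negative. Without any test, 6 of the 9 (these 5 and Col6a3) were at least 1.5-fold lower in both pairs of like scale, against 9.37% of 9293 genes with values above 0. Collagen mRNA in a whole muscle falls alike when there are fewer cells that make it and when each makes less, and these cannot be told apart.
The calls rest on the scaling and on single samples. With the values as deposited, without Old 2, or without Young 1, 0 of the 9 passed, while all log2 fold changes kept their sign.

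**Figure D1:**
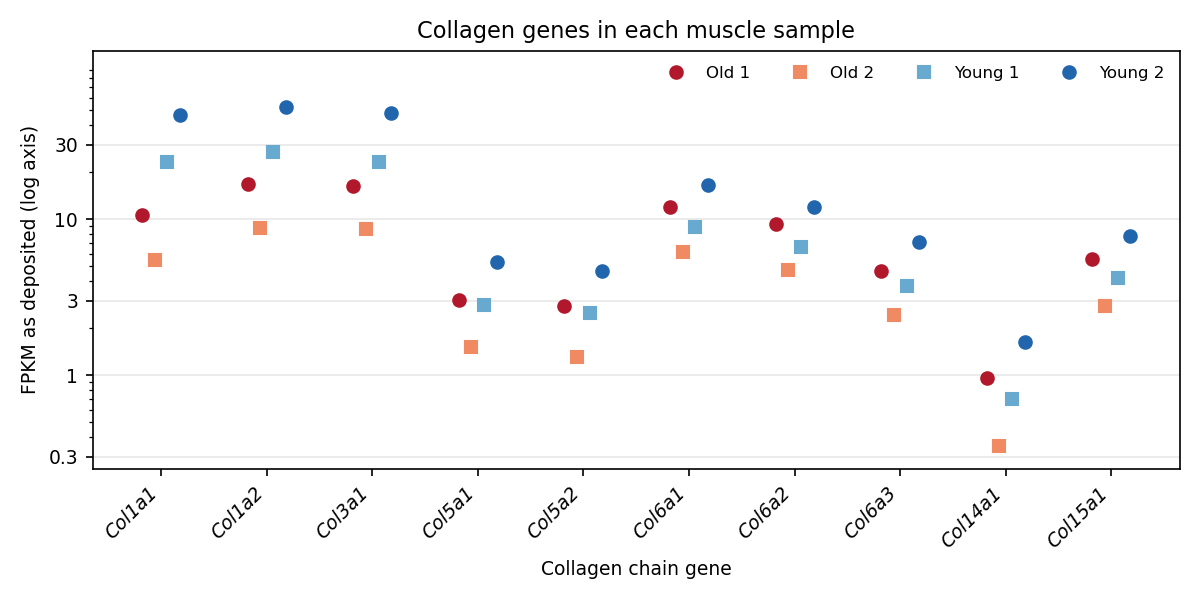
FPKM as deposited of the 10 collagen genes in each of the 4 samples, on a log axis. Circles (Old 1, Young 2) and squares (Old 2, Young 1) mark samples of like scale. For Col1a1, Col1a2 and Col3a1 both old samples lie below both young samples, and for the other 7 each old sample lies below the young sample of the same marker.

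Collagen I is made of the products of Col1a1 and Col1a2, and is the most abundant collagen of the fibrils. Col1a1 (chromosome 11, 94936259 to 94953041, mm10) had 10.6 FPKM in Old 1 and 5.45 in Old 2, against 23.2 in Young 1 and 46.3 in Young 2. Both old samples were below both young ones, even before the scaling (exact permutation test on the scaled values, two-sided p = 0.33, the smallest p that 2 against 2 allows). The share of all genes without overlap was not counted, so nothing particular to collagens is read from a lack of overlap, here or below. Col1a1 was 4.36-fold lower in Old 1 than in Young 2 and 4.26-fold lower in Old 2 than in Young 1. The log2 fold change was -1.96 (SE 0.08, adjusted p = 0.0205, limma), the 43rd lowest of all genes tested.
Col1a2 (chromosome 6, 4505697 to 4541543) had 16.7 and 8.75 FPKM in Old 1 and Old 2, and 26.7 and 52.6 in Young 1 and Young 2. Again the ages did not overlap, with folds of 3.14 and 3.05 in the 2 pairs and a log2 fold change of -1.54 (SE 0.09, adjusted p = 0.0219, limma). The chains did not fall equally. The ratio of Col1a1 to Col1a2 within a sample, which no scaling can change, was 0.635 in Old 1 and 0.623 in Old 2, against 0.868 in Young 1 and 0.880 in Young 2. Within an age it differed by about 0.01, and between the ages by 1.39-fold (exact permutation p = 0.33, again the smallest possible).

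Collagen III, a trimer of the Col3a1 product alone, makes thin, compliant fibrils together with collagen I. Col3a1 (chromosome 1, 45311538 to 45349706) had 16.4 FPKM in Old 1 and 8.58 in Old 2, against 23.4 in Young 1 and 48.1 in Young 2. It was 2.94-fold lower in Old 1 than in Young 2 and 2.73-fold lower in Old 2 than in Young 1, with a log2 fold change of -1.41 (SE 0.08, adjusted p = 0.0214, limma). In young muscles Col3a1 and Col1a1 stood at nearly the same level, with a ratio of 1.01 in Young 1 and 1.04 in Young 2. In old muscles Col3a1 was the higher, at 1.54 in Old 1 and 1.57 in Old 2. Against Col1a2 it shifted less, from 0.875 and 0.916 in young to 0.980 in both old samples.

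Collagen V had lower mRNA levels than collagens I and III. Col5a1 (chromosome 2, 27886425 to 28039510) had 3.04 FPKM in Old 1 and 1.51 in Old 2, against 2.82 in Young 1 and 5.27 in Young 2. As deposited the ages overlap, since Old 1 lies above Young 1, and after scaling they do not (exact permutation p = 0.33, the smallest possible). The folds were 1.73 and 1.87 in the pairs of like scale, and the log2 fold change was -0.62 (SE 0.09, adjusted p = 0.0404, limma). Col5a2 (chromosome 1, 45374331 to 45503282), the partner chain, had 2.77 and 1.31 FPKM in Old 1 and Old 2 and 2.48 and 4.67 in Young 1 and Young 2. Its log2 fold change was -0.59 (SE 0.08, adjusted p = 0.0410, limma). The 2 chains kept their ratio: Col5a1 to Col5a2 was 1.10 and 1.15 in old and 1.14 and 1.13 in young muscles, and the ages overlapped. Relative to Col1a1, however, Col5a1 was at 0.287 and 0.277 in old and at 0.122 and 0.114 in young muscles. Both calls were lost with quantile normalization, without the filter on low values and in limma without a trend (adjusted p from 0.0616 to 0.353).

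**Figure D2:**
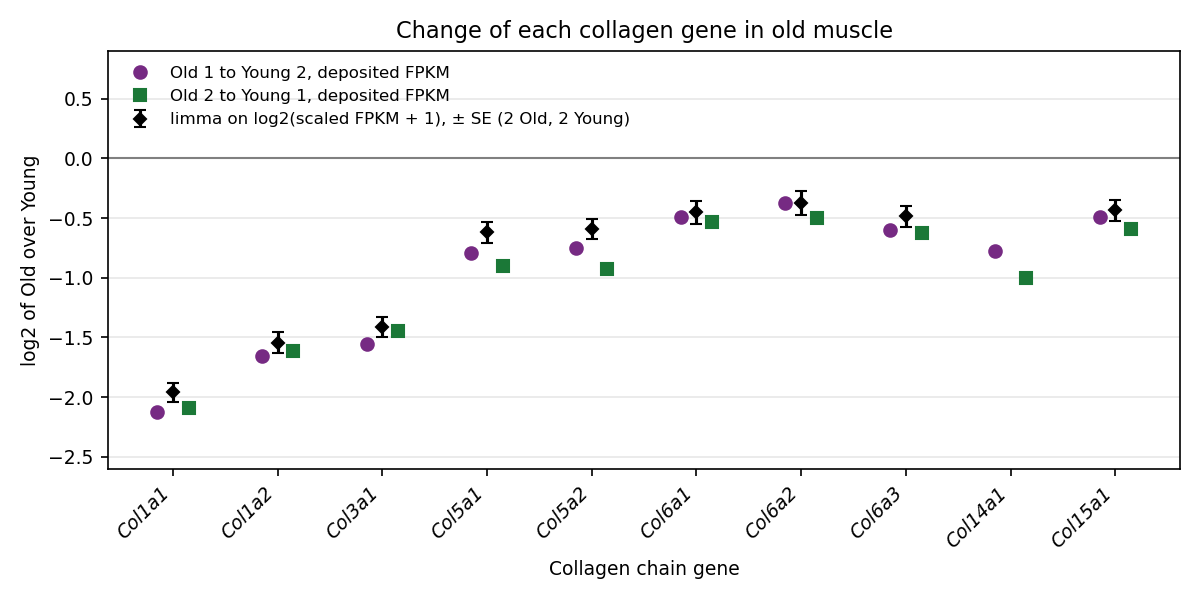
log2 of Old over Young for each gene: circles and squares are the 2 pairs of like scale on deposited FPKM, and diamonds are the limma log2 fold change on log2(scaled FPKM + 1) with its SE (2 Old and 2 Young samples; Col14a1 was not tested). Values run from about -2 at Col1a1 to -0.37 at Col6a2, and the pseudocount places the diamonds nearer to 0 at low levels.

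The 3 chains of collagen VI were lower in old muscles by smaller folds, and none passed the test. Col6a1 (chromosome 10, 76708792 to 76726044) had 11.9 FPKM in Old 1 and 6.13 in Old 2, against 8.86 in Young 1 and 16.7 in Young 2. That is 1.40-fold and 1.45-fold lower in the pairs of like scale, with a log2 fold change of -0.45 (SE 0.10, adjusted p = 0.0680, limma). Its neighbour Col6a2 (chromosome 10, 76595756 to 76623404) had 9.28 FPKM in Old 1 and 4.71 in Old 2, against 6.65 in Young 1 and 12.03 in Young 2, with folds of 1.30 and 1.41. Its log2 fold change of -0.37 was the nearest to 0 of the 9 (SE 0.10, adjusted p = 0.105, limma).
Col6a3 (chromosome 1, 90766860 to 90843971), the longest chain, had 4.67 FPKM in Old 1 and 2.43 in Old 2, against 3.75 in Young 1 and 7.10 in Young 2. Its folds were 1.52 and 1.54, and its log2 fold change was -0.48 (SE 0.09, adjusted p = 0.0559, limma). After scaling, the ages did not overlap for any of the 3 chains (exact permutation p = 0.33 each, the smallest possible). The share of all genes without overlap was not counted, so nothing particular to these chains is read from it. The adjusted p of all 3 was under 0.05 when the scaling used genes of at least 10 FPKM (0.0165 to 0.0338, limma). Over all 14 alternative fits, however, Col6a1 and Col6a3 passed in 4 and Col6a2 in 3, and with quantile normalization the adjusted p was 0.213 to 0.369 (limma). The ratios among these chains shifted by 1.05-fold to 1.13-fold without overlap of the ages (exact permutation p = 0.33 each, the smallest possible). Col6a2 to Col6a3 was 1.99 and 1.94 in old against 1.77 and 1.70 in young muscles, and Col6a3 to Col6a1 was 0.393 and 0.397 in old against 0.423 and 0.426 in young muscles. Col6a1 to Col6a2 was 1.28 and 1.30 in old against 1.33 and 1.38 in young muscles.

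Collagens XIV and XV sit at the edges of the fibril network. Col14a1 (chromosome 15, 55307750 to 55520803) was the lowest of the 10, with 0.957 FPKM in Old 1 and 0.352 in Old 2, against 0.705 in Young 1 and 1.63 in Young 2. Only Young 2 reached 1 FPKM, so Col14a1 was not tested. It was 1.71-fold and 2.004-fold lower in the pairs of like scale. At this level the factor between samples of an age was larger than for the other members, 2.72 between the old and 2.32 between the young muscles, against 1.91 to 2.12 and 1.81 to 2.06 for the other 9.
Col15a1 (chromosome 4, 47208012 to 47313165) had 5.55 FPKM in Old 1 and 2.78 in Old 2, against 4.20 in Young 1 and 7.80 in Young 2. Its folds were 1.40 and 1.51, with a log2 fold change of -0.44 (SE 0.09, adjusted p = 0.0640, limma). It kept nearly the same ratio to Col6a1: 0.468 and 0.454 in old and 0.475 and 0.468 in young muscles, a shift of 1.02-fold.

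When chains were summed by type, the types fell into an order. In the pairs of like scale, the summed FPKM was 3.61-fold and 3.51-fold lower in old muscles for collagen I, and 2.94-fold and 2.73-fold lower for collagen III. For collagen V the folds were 1.71 and 1.88, for XIV 1.71 and 2.004, for XV 1.40 and 1.51, and for VI 1.39 and 1.45. Collagen I lay apart from III, and both from the other 4, by more than the difference between the pairs, while V and XIV, and likewise VI and XV, overlapped. No test of the order was made.
The summed mRNA of these 10 genes was therefore composed differently in old muscles. Collagens I and III together made up 53.4% of the summed FPKM of the 10 genes in Old 1 and 54.2% in Old 2, against 71.3% in Young 1 and 72.7% in Young 2. Collagen VI made up 31.5% and 31.6% in old and 18.7% and 17.7% in young muscles. Relative to Col6a1, the level of Col1a1 was 0.894 and 0.890 in old but 2.62 and 2.78 in young muscles, a 3.03-fold shift within the samples (exact permutation p = 0.33, the smallest possible).

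**Figure D3:**
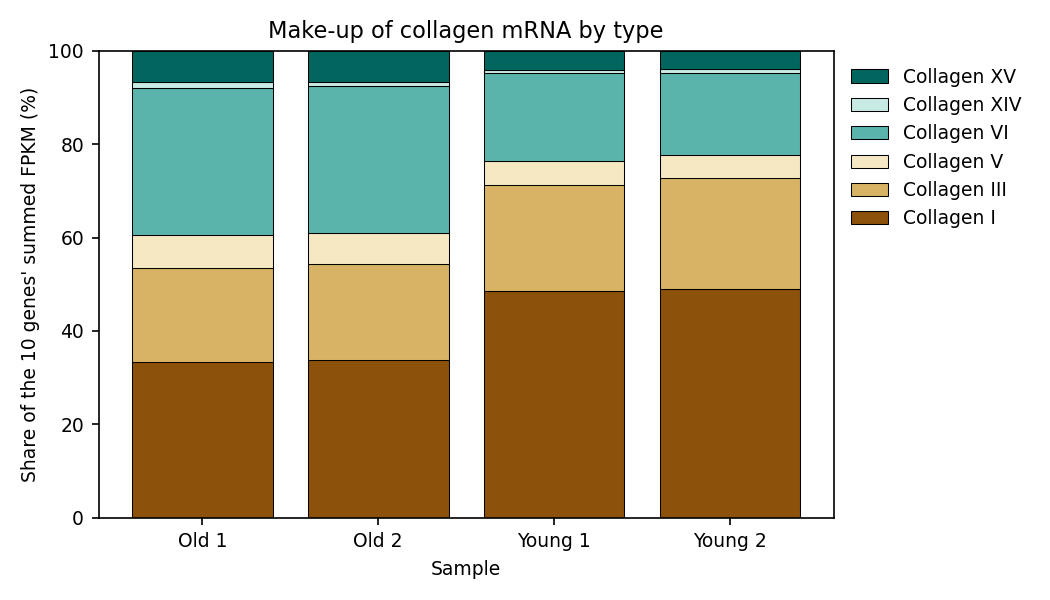
Share of each collagen type in the summed FPKM of the 10 genes (percent), 1 bar per sample. The bars of an age are nearly alike, and collagens I and III fill 53.4% and 54.2% of the old bars and 71.3% and 72.7% of the young bars.

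The promoters of 7 of the 10 genes could be read from RefSeq (GRCm38.p6, 250 bases before to 50 after the start of transcription). They were searched on both strands for CCAAT, a motif bound by the factor NF-Y, and for TATAAA, the core sequence of the TATA box. A match was counted at any position, so it need not be a working site. No promoter was available for Col1a1, Col5a2 and Col14a1. CCAAT was found in 1 of the 7 genes, Col1a2 (1 of the 8 promoters read), and in 37.4% of all 32851 promoters of this length. TATAAA was found in Col3a1 alone of the 7, at position -117 from the start, and in 13.6% of all promoters. The promoter of Col1a2 (chr6:4505368-4505667, plus strand) is shown because it holds CCAAT on both strands, in capitals.
Col1a2: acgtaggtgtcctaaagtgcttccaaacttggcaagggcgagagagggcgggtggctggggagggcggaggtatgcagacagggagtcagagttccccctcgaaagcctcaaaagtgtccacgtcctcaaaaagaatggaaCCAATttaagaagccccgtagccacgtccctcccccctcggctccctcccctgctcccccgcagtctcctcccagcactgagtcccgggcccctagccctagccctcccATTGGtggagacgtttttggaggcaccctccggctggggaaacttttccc
Of the NF-Y subunits and other regulators listed below, Nfyb and Nfyc did not pass the test, with log2 fold changes of -0.28 (SE 0.09) and -0.14 (SE 0.09).

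Of 34 other collagen genes, 23 had a value of their own and 5 reached the filter, and 1 of the 5 rose and 0 fell. Most of the 23 were too low to test. The rest of the 34, among them Col4a1, Col4a2 and Col12a1, had no value of their own, which does not mean that they were low. Of 16 with values above 0 in every sample, 10 were lower and 4 higher in old samples in both pairs. The share of all genes lower or higher in both pairs was not counted, so nothing particular to collagens is read from these counts. Col24a1, a minor fibrillar collagen, had 6.32 FPKM in Old 1 and 2.94 in Old 2, against 0.745 in Young 1 and 1.74 in Young 2. Here both old samples were above both young ones, with folds of 3.63 and 3.94 in the pairs of like scale and a log2 fold change of 1.32 (SE 0.08, adjusted p = 0.0214, limma). Col22a1, a collagen of the myotendinous junction, had a log2 fold change of 0.27 (SE 0.07, adjusted p = 0.0844, limma). Col18a1, the basement membrane relative of Col15a1, was at -0.32 (1.41-fold and 1.66-fold lower in the pairs) and Col11a2 at 0.10, neither past the threshold.

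Enzymes and chaperones that fold and modify procollagen in the endoplasmic reticulum were split. Of 22 genes, 16 were tested, 2 fell and 1 rose, with a median log2 fold change of 0.06. Serpinh1 encodes HSP47, the chaperone particular to procollagen, and had 20.5 FPKM in Old 1 and 10.4 in Old 2, against 20.1 in Young 1 and 39.6 in Young 2. It fell, with a log2 fold change of -0.89 (SE 0.08, adjusted p = 0.0258, limma) and a fold of 1.93 in both pairs. The lysyl hydroxylase gene Plod1 fell by less, at -0.49 (adjusted p = 0.0485, limma). Mia3, needed to export large procollagens, rose by 0.51 (adjusted p = 0.0469, limma). The general chaperone genes P4hb and Hspa5, which serve many other proteins, had positive log2 fold changes of 0.40 and 0.32 and did not pass.
Of 13 secreted enzymes and helpers that cut and cross-link procollagen, 6 were tested and 2 fell. The log2 fold changes of these 6 were all negative, with a median of -0.59. Of the 9 genes with values above 0 in every sample, tested or not, 7 were lower and 2 higher in old samples in both pairs. The share of all genes that did so was not counted. Pcolce, which speeds the removal of the C-terminal propeptide, had 13.9 FPKM in Old 1 and 6.59 in Old 2, against 12.9 in Young 1 and 26.0 in Young 2, and a log2 fold change of -0.86 (SE 0.06, adjusted p = 0.0227, limma). Bmp1, the protease that removes it, was at -0.71 (SE 0.05, adjusted p = 0.0240, limma). The cross-linking enzymes Lox and Loxl2 and the N-propeptidase Adamts2 were at -0.64, -0.41 and -0.55, and did not pass.

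Among 15 matrix proteins that bind or organise fibrils, 14 were tested, 3 fell and 0 rose, with a median of -0.25. Sparc, a collagen-binding glycoprotein, had 68.9 FPKM in Old 1 and 35.9 in Old 2, against 72.3 in Young 1 and 138 in Young 2. It was 2.01-fold lower in both pairs (log2 fold change -0.98, SE 0.10, adjusted p = 0.0291, limma). Postn, a matricellular protein of remodelling tissue, and Fmod, a proteoglycan of fibrils, each fell by 0.80 on the log2 scale (adjusted p = 0.0410 and 0.0295, limma). The proteoglycans Dcn, Lum and Ogn did not pass, and Dcn, with 120 FPKM in Old 1 and 96.9 in Young 2, had a positive log2 fold change of 0.30.

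Of 13 turnover genes, 8 were tested, 1 fell and 0 rose. Timp4, an inhibitor of matrix metalloproteinases, had 19.4 FPKM in Old 1 and 8.57 in Old 2, against 24.5 in Young 1 and 56.1 in Young 2, with a log2 fold change of -1.44 (SE 0.07, adjusted p = 0.0205, limma). Timp2, Timp3 and the collagen-degrading cathepsin gene Ctsk were at -0.11, -0.28 and -0.43 and did not pass. Of 12 collagen receptors, 5 were tested and 1, the receptor tyrosine kinase gene Ddr1, fell (-0.44, adjusted p = 0.0291, limma). Ddr2 was at 0.01 and Itga1 at -0.21.
Of 23 ligands, receptors and regulators linked to collagen synthesis, 20 were tested, 3 rose and 2 fell, with a median of -0.09. The matricellular gene Ccn1 rose by 1.62, the immediate-early factor gene Egr1 by 2.11 and the ligand gene Tgfb3 by 0.63 on the log2 scale (adjusted p = 0.0205, 0.0205 and 0.0440, limma). Ccn2 and Pdgfb fell by 0.41 each (adjusted p = 0.0311 and 0.0407, limma).

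**Figure D4:**
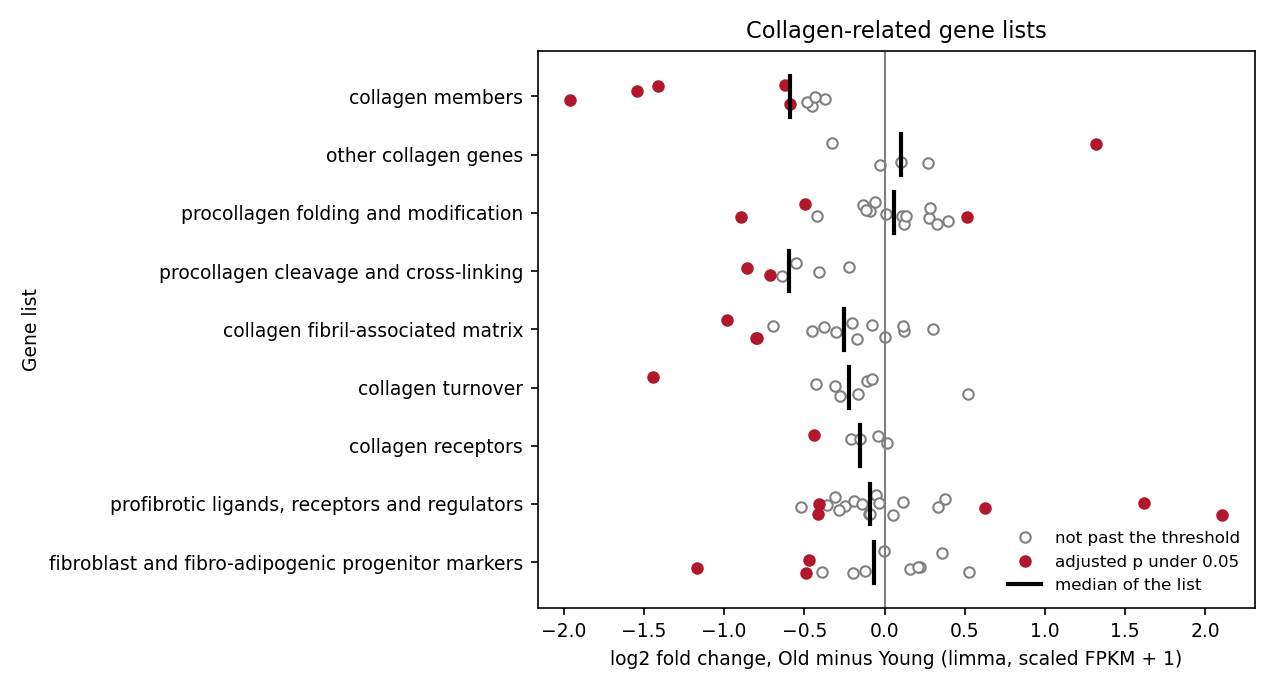
limma log2 fold change (Old minus Young, scaled FPKM + 1) of every tested gene in 9 lists, filled where the adjusted p was under 0.05, with the median of each list as a bar. The 9 collagen members and the 6 genes for procollagen cleavage and cross-linking all lie below 0, and the other 7 lists have genes on both sides.

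Markers of the cells that could supply or dilute this mRNA moved in part with the collagens, and their part in the result was not tested. Of 14 fibroblast and fibro-adipogenic progenitor markers, 12 were tested, 3 fell and 0 rose, with a median of -0.06. Ly6a, which encodes the surface antigen Sca-1, fell by 1.17 on the log2 scale, Gas1 by 0.49 and Pdgfrb by 0.47 (adjusted p = 0.0240, 0.0384 and 0.0487, limma). Gsn, Vim and Smoc2 were at 0.21, 0.00 and 0.53 and did not pass. The summed scaled FPKM of the list was 287 and 304 in old against 340 and 313 in young muscles, while that of the 10 collagens was 56.0 and 61.8 against 149 and 138. The list's sum rests on single genes. Without Gsn it was 155 and 167 against 220.0 and 199, and without Ly6a it was 248 and 262 against 243 and 225.
Over all genes tested, 7.94% were called lower. Endothelial markers had 3 of 9 called lower (Flt1, Eng and Tie1), with sums of 103 and 112 in old and 145 and 133 in young muscles. Egfl7, Pecam1 and Emcn were at -0.24, -0.27 and -0.09 and did not pass, and 7 of the 9 log2 fold changes were negative. Smooth muscle and pericyte markers had 2 of 6 called lower (Notch3 and Acta2, with sums of 177 and 160 in old, 176 and 220 in young). Rgs5, Abcc9 and Kcnj8 were at -0.29, 0.02 and 0.16 and did not pass, and 3 of the 6 log2 fold changes were negative. Rgs5 had 83.9 and 59.4 in old and 64.3 and 115.6 in young muscles, so the sums partly follow a gene that varied within an age. Macrophage markers had 1 of 7 called lower (Mrc1, with sums of 15.4 and 10.1 in old, 16.0 and 22.6 in young). The log2 fold changes of all 7 were negative, with a median of -0.43, against 5199 negative of all 10266 genes tested. Tendon markers had 1 of 4 called lower, Fmod (sums of 36.2 and 26.9 in old, 41.2 and 44.4 in young). Adipocyte markers had 0 of 6 past the threshold in limma (307 and 247 in old, 268 and 343 in young). Most of these sums was Fabp4, with 214 and 239 in old and 263 and 235 in young muscles. Cfd added 81.3 in Old 1 and 100 in Young 2, so the sums say little of the other adipocyte markers. The tendon factor Scx was listed at 0 in Old 2 and Young 1, and the adipocyte gene Cfd likewise. None of these lists held a gene called higher. The adipocyte gene Adipoq was 1.97-fold and 2.17-fold higher in old samples in the pairs of like scale, without passing (log2 fold change 0.82, adjusted p = 0.0888, limma). Of 6 adipocyte markers with values above 0 in every sample, 4 were higher and 2 lower in old samples in both pairs. The share of all genes that did so was not counted.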

How the data were processed

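The authors trimmed reads, removed PCR duplicates, aligned to mm10 with TopHat2 2.0.10 using RefSeq models, and ran Cufflinks on each sample; the deposited values are FPKM per locus. Cuffdiff 2.1.1, which the submitters' processing notes name, works on alignments and was not repeated. The last, incomplete line of each table (1 per sample) was left out. Loci with a value in all 4 samples (20605) were kept and summed by symbol. Genes on chromosomes later in text order (8, 9, X and Y) and the end of chromosome 7 were not analysed here. Locus starts were written 1-based.

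Each sample was divided by the median ratio to the geometric mean over 7228 genes with at least 1 FPKM in all samples (factors 1.46 for Old 1, 0.680 for Old 2, 0.689 for Young 1 and 1.47 for Young 2). This choice follows the scaling between libraries that Cuffdiff makes, and was made knowing that 0 members are called without it. log2(FPKM + 1) was fitted with limma 3.58.1 in R 4.3.3 (trend, two-sided, Benjamini-Hochberg over 10266 genes that reached 1 FPKM in 2 or more samples, adjusted p under 0.05). The fit was run on simulated data with the same factor for every gene and independent noise. Here the factor varied with level and deviations were shared between samples, so that run does not show how the fit behaves on these data. Fold changes on this scale understate the change of low genes. Tables used Python 3.11.15, pandas 2.3.3, numpy 2.4.6 and scipy 1.17.1.

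The members and lists were chosen with earlier results of these data known. All 10 members were named. Per list, up to 6 genes past the threshold with the largest change were named, and up to 3 others with the highest mean FPKM. Mmp14 and some collagens without a value were named besides. List sums use scaled FPKM. Alternatives were other scalings, pseudocount, filters, 1 locus per symbol, no trend, blocks, a 1.5-fold rule and leaving out each sample. The crossed pairs and the fold in both pairs were added after seeing the values. Coding frames are the longest from ATG to stop among the protein-coding transcripts of a gene. The result of 1 further marker list is not reported here.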

Additional observations from a re-analysis of the deposited data

How the results depend on the processing

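The log2 fold changes of the 9 tested collagens kept their sign under all 14 fits run besides the reported one, from -2.08 to -1.88 for Col1a1 and from -0.48 to -0.28 for Col6a2. The number called lower did not: 5 became 0 with the values as deposited, 3 with quantile normalization, without a filter on low values or without the trend, 8 with at least 1 FPKM in all 4 samples, and 9 when scaled over genes of at least 10 FPKM. Leaving out 1 sample gave 0 to 9 (0 without Old 2 or without Young 1, 5 without Old 1, 9 without Young 2), the lone sample of an age being assumed to vary like the other age. The 1.5-fold rules, in both pairs or with each age as 1 sample, gave 6. Of the 9, 0 were called higher under any of these settings, and 0 were higher at an unadjusted p under 0.05, since all 9 were negative (limma).
Over all genes, 815 lower and 576 higher became 13 and 18 as deposited, 188 and 119 with quantile normalization, 1516 and 1454 with scaling over genes of at least 10 FPKM, 1302 and 1222 when all 4 samples had to reach 1 FPKM, 202 and 114 without a filter, 181 and 103 without the trend, and 1 to 773 and 0 to 619 without 1 sample. Taking each age as 1 sample, 1040 were 1.5-fold higher. Of 135 tested genes of the other lists, 32 were called, 5 as deposited, and 0 without Old 2 or without Young 1 (limma).
With the labels' replicate numbers fitted as a replicate block, 0 collagens were lower (adjusted p of Col1a1 0.052, limma), and 21 genes were lower and 24 higher in all. Same-numbered samples deviated from their age in opposite directions (correlation -0.885 before scaling and -0.903 after, across genes, which are not independent). The scaling thus did not remove a deviation shared by samples of like scale, and the main fit counts it as spread within an age. With the crossed pairs as a block, 9 collagens were lower, and 3503 genes lower and 3242 higher. The summed FPKM of the 10 genes was 2.43-fold lower in old muscles when scaled and 2.46-fold as deposited. Unknown depth limits what can be said of Col14a1 and other genes near 1 FPKM.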
